A study of Mus musculus with 8 samples.

Results

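Tumor necrosis factor (Tnf) and 9 genes of the NF-kappaB pathway were followed through all clusters, tissues and times of a single-cell RNA-sequencing (scRNA-seq) series of leukocytes after experimental stroke. The genes were chosen by name, as Tnf, the inhibitors Nfkbia, Nfkbiz, Nfkbid and Bcl3, the ubiquitin-editing enzyme Tnfaip3, and the subunits Nfkb1, Nfkb2, Rel and Relb, which makes 10 of the 30406 genes listed in every library. All 10 were found by Ensembl identifier in every library, and all 10 passed the filter on low counts in each comparison that used all libraries. The study sorted CD45+ leukocytes that an intravenously injected CD45 antibody had not stained from brain parenchyma, pia mater and dura mater of adult male C57BL/6 mice. Transient middle cerebral artery occlusion (MCAO), a model of ischemic stroke, preceded the sort by 24 h or 72 h. Control brain, control pia, control dura, pia at 24 h, dura at 24 h and brain at 72 h were each represented by 1 library, and 24 h brain by a pair of libraries, replicates 1 and 2. The controls had no occlusion, and the study's methods describe those used for scRNA-seq as naive mice, while its figure legends call them sham-operated. If they were naive, surgery and stroke cannot be told apart in the comparisons with control. Mice were pooled for sequencing, the number per library was not found, and all p-values therefore measure only the spread between libraries. The study's methods take brain parenchyma, pia and dura from the mice in the same dissection. Whether libraries of different tissues came from the same mice was not found, and the tests treat the libraries as independent. In fits without replicate 1 or replicate 2, each tissue and time held at most 1 library. The p-values of those fits rest on how far the tissues disagreed in their change at 24 h, not on replicate libraries. The library of control pia carries a title that names brain parenchyma, while its other labels name pia, and it was used as pia. Brain was digested with collagenase at 2.5 mg/ml for 20 min, and pia and dura with 1 mg/ml for 45 min, so tissue and digestion cannot be told apart.

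NF-kappaB is a family of dimeric transcription factors that rest in the cytoplasm, bound by inhibitor proteins. Receptors for Tnf, for interleukin-1 and for microbial products activate a kinase complex that has the inhibitor degraded, and the dimer then enters the nucleus. Among the genes it switches on are those of its own inhibitors, which closes a feedback loop, and Tnf itself. Microglia, the resident macrophages of the brain, and the macrophages at its borders are known to make Tnf after ischemia.

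The promoters of the genes are shown because the feedback depends on NF-kappaB binding to them. RefSeq windows (GRCm38.p6) of 300 bases, 250 before and 50 after a transcription start, were found for 7 of the 10 genes. No window was found for Nfkbiz, Nfkb1 and Relb. The kappaB consensus, a motif of 10 bases, was searched on both strands with overlapping matches counted. It matched in 2779 of all 32851 windows of the table (8.46%) and in 8 of the 12 windows of these genes, which belong to 6 of the 7. With 1 mismatch allowed, 63.2% of all windows and all 12 windows of these genes held a match. The 250 bases before the start are given 5′ to 3′ on the strand of the gene, with matches in capitals, for Tnf, for the classical feedback inhibitor (Nfkbia), for the inhibitor on which the comparison of tissues turns (Nfkbid, the second of its 3 starts), for Tnfaip3 and for Rel. They lie at chr17:35202008-35202257 (minus strand), chr12:55492648-55492897 (minus strand), chr7:30422156-30422405 (plus strand), chr10:19015411-19015660 (minus strand) and chr11:23770970-23771219 (minus strand).
Tnf: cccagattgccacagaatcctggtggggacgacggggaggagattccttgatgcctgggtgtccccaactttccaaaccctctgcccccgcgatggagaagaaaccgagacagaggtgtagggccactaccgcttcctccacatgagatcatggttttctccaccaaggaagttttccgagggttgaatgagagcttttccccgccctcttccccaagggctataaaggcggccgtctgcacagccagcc
Nfkbia: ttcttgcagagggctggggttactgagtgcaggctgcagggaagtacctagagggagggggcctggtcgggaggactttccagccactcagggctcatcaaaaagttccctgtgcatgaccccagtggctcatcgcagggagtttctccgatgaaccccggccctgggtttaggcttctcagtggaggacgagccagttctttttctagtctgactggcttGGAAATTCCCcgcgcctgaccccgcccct
Nfkbid: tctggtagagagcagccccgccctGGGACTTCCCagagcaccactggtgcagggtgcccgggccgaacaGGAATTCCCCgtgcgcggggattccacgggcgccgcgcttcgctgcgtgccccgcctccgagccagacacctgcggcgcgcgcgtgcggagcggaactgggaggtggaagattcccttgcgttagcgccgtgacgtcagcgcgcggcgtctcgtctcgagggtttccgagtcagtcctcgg
Tnfaip3: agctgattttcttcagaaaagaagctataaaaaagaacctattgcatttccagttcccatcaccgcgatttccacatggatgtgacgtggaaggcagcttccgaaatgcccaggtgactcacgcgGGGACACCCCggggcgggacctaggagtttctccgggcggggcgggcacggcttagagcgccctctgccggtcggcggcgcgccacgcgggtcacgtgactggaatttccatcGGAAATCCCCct
Rel: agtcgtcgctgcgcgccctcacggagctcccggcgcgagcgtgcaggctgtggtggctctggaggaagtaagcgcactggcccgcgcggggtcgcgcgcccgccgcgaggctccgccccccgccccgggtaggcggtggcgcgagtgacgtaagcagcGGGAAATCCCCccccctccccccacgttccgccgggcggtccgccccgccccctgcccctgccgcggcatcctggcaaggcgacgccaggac
In Nfkbia the match began 29 bases before the start, in Nfkbid 226 and 181 bases before it, in Tnfaip3 125 and 12 bases before it, and in Rel 92 and 91 bases before it as a pair of overlapping matches. Nfkbid held matches in only 1 of its 3 windows and Tnfaip3 in only 1 of its 2, and those are the windows printed. The window of Bcl3 held a match just after the start, and all 3 windows of Nfkb2 held at least 1. These letters were not in the window of Tnf. A match describes the sequence and is not a binding site.

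The counts are unique molecular identifiers (UMIs), 1 per captured transcript, between 6591898 and 20754181 per library. The authors' annotation gave 32457 of 36854 barcodes to 21 clusters. UMIs were summed per library and cluster, or per class of clusters, and expressed as counts per 1000000 UMIs of that sum (CPM), used where at least 30 cells were present. A gene was called when edgeR gave it an adjusted p below 0.05 together with at least a 2-fold difference. The second replicate of 24 h brain and the 72 h brain library stood apart from the other 6 libraries. These 2 libraries list 31053 genes in place of 32285, and they shared 13 cell barcodes with each other but at most 2 with any other library, while any pair of the other 6 shared 12 to 43. Each test was therefore run with and without replicate 2. The study used an older and a newer version of the library kit and lists the newer one for brain at 72 h and dura at 24 h, which is not the split given by barcodes and gene lists. By that list, dura at 24 h differed from control dura, and brain at 72 h from brain at 24 h, in kit as well as in time, and these cannot be told apart. Some clusters also went against their names. In the macrophage clusters (CAM_1, CAM_2, Macro_1 and Macro_2) the 5 microglia markers summed to 25077 CPM in control brain and 11086 CPM in replicate 1, against 1010 to 1776 CPM in pia and dura. The 5 macrophage markers summed to 8165 and 3090 CPM there, against 54785 to 66379 CPM. In each of these 2 brain libraries 1 of the 5 macrophage markers was at 0 and none of the microglia markers was. Among these clusters, Macro_2 held macrophage markers above microglia markers in every library. The microglia clusters of dura held 34225 and 38049 CPM of macrophage markers beside 3024 and 2059 CPM of microglia markers and were left out of the tests. In pia they held both sets, at 13676 and 12695 CPM in the control library. In such sums fewer cells of a type and less RNA per cell cannot be told apart.

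**Figure D1:**
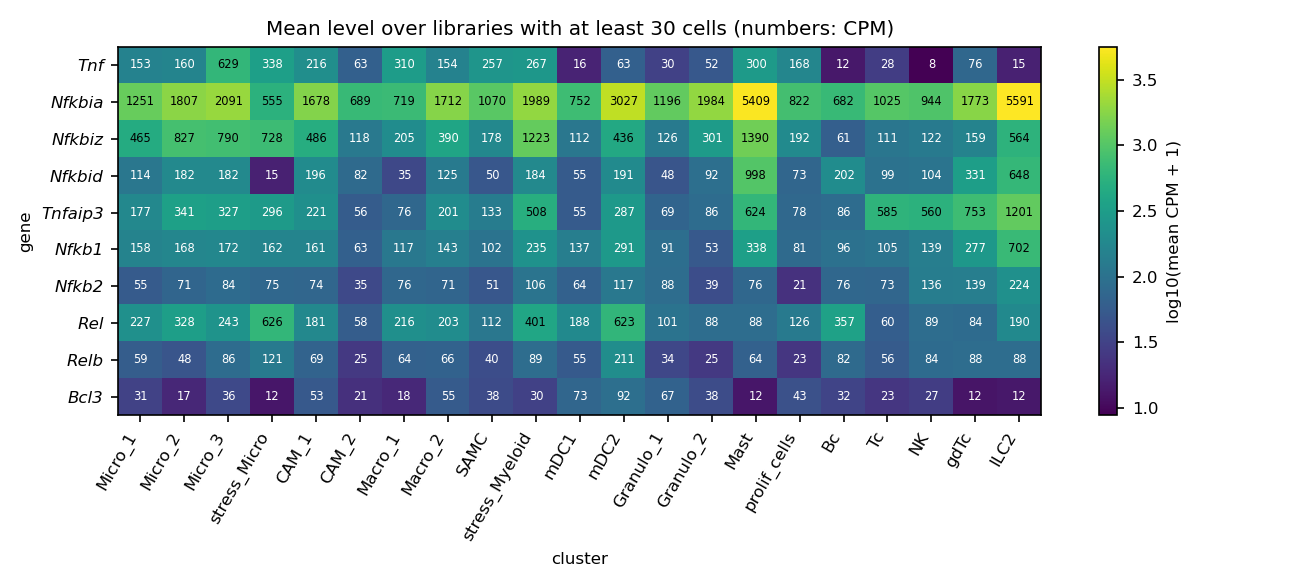
Mean CPM of each gene (rows) in each cluster (columns) over those libraries in which the cluster had 30 cells or more, with colour for log10(mean CPM + 1) and the mean printed in each field. Tnf was highest in Micro_3 (629 CPM), Nfkbia, Tnfaip3, Nfkb1 and Nfkb2 were highest in ILC2, and Relb and Bcl3 were highest in mDC2.

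Tnf, the ligand, had its highest mean in the microglia cluster Micro_3, at 629 ± 492 CPM (SD, n = 6 libraries). The libraries of Micro_3 ran from 89.3 CPM in control brain over 354 in pia of controls, 418 in 24 h pia, 430 in replicate 1 and 1164 in replicate 2 to 1316 CPM in brain at 72 h. The 2 brain libraries at 24 h and the library at 72 h were all above control brain. Microglia markers in Micro_3 stood at 27729 CPM in control brain and at 9185 to 15649 CPM in these later libraries. Cell identity and time therefore cannot be fully told apart there. In Micro_3 of control pia, macrophage markers (19406 CPM) exceeded microglia markers (10197 CPM). In Micro_3 of pia at 24 h these stood at 5314 and 7797 CPM, so both pia values come from cells with both marker sets. The clusters stress_Micro (338 CPM ± 49.4, n = 2), Macro_1 (310 CPM in 1 library) and Mast (300 CPM ± 207, n = 2) came next. One of the libraries of stress_Micro was replicate 2, which held the most Tnf over all annotated cells (260 CPM). B cells (12.4 CPM ± 15.5, n = 6) and NK cells (7.86 CPM ± 9.48, n = 6) were lowest. None of the 20 neighbouring pairs in this order differed by more than the larger SD. After each cell was thinned to 1000 UMIs, 31.2% ± 20.3 of Micro_3 cells held a Tnf UMI (n = 6; lowest 7.96%, highest 58.9%). In B cells the share was 0.274% ± 0.613 (n = 5) and in NK cells 0.716% ± 1.28 (n = 6). Without thinning the share in Micro_3 was between 12.6% and 74.4%, and that in NK cells between 0% and 3.33%. The median depth before thinning was 1094 to 2420 UMIs in Micro_3, 965 to 2157 in NK cells and 805 to 1638 in B cells. In the 4 libraries that held both clusters the share in Micro_3 was between 18.4% and 58.9% while that in NK cells was at most 3.16%. The part of free RNA in the droplets was not tested.

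Nfkbia encodes the classical inhibitor of NF-kappaB and was highest in the innate lymphoid cells ILC2 (5591 CPM ± 2143, n = 5) and mast cells (5409 CPM ± 811, n = 2), followed by mDC2 (3027 CPM ± 670, n = 6). The ILC2 libraries held 3133 CPM in brain at 72 h, 4246 and 6335 in control pia and pia at 24 h, and 5496 and 8745 in control dura and dura at 24 h. The steps from mast cells to mDC2 and from mDC2 to Micro_3 were the 2 of 20 that exceeded the larger SD. Nfkbiz, an atypical nuclear inhibitor that also coactivates some targets, was highest in mast cells (1390 CPM ± 81.1, n = 2) and in the stressed myeloid cluster (1223 CPM ± 508, n = 3), followed by the microglia cluster Micro_2 (827 CPM ± 262, n = 6). Nfkbid, another atypical nuclear inhibitor, was highest in mast cells as well (998 CPM ± 89.4, n = 2), followed by ILC2 (648 CPM ± 408, n = 5). Bcl3, a nuclear inhibitor that acts with the p50 and p52 subunits, was highest in the dendritic clusters mDC2 (92.4 CPM ± 37.3, n = 6) and mDC1 (73.1 CPM ± 28.2, n = 6). For Nfkbiz and Bcl3 no neighbouring pair of clusters differed by more than the larger SD.

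Tnfaip3 encodes A20, which edits ubiquitin chains on signalling proteins and so dampens the pathway. It was highest in ILC2 (1201 CPM ± 124, n = 5), and this lead over gdTc (753 CPM ± 200, n = 4) exceeded the larger SD. T cells held 585 CPM ± 127 (n = 8), while CAM_2 and mDC1 held 56.3 CPM ± 26.8 (n = 8) and 55.4 CPM ± 23.3 (n = 6). Over the lymphoid clusters together Tnfaip3 varied little, from 537 CPM in control brain to 681 CPM in control dura.

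Of the subunits, Nfkb1, the precursor of p50, led in ILC2 (702 CPM ± 193, n = 5) by more than the larger SD over mast cells (338 CPM ± 154, n = 2). Nfkb2, the precursor of p52, was also highest in ILC2 (224 CPM ± 135, n = 5). Relb, its usual partner, was highest in mDC2 (211 CPM ± 57.4, n = 6), ahead of stress_Micro (121 CPM ± 1.19, n = 2) by more than the larger SD. Rel, which encodes c-Rel, stood at 626 CPM ± 47.9 (n = 2) in stress_Micro and 623 CPM ± 505 (n = 6) in mDC2, and these clusters changed places in 5 alternatives. The 2 libraries of stress_Micro include replicate 2 and neither control brain, replicate 1 nor pia. Its means and those of mDC2 therefore cover different libraries, for Relb as well as Rel. Over all annotated cells Rel held 408 CPM in replicate 2 and 241 CPM at 72 h, against 83.2 to 184 CPM in the other 6 libraries. In dendritic cells it held 936 and 483 CPM in those 2 libraries, against 183 to 258 CPM elsewhere. In microglia it held 592 and 511 CPM, against 76 to 223 CPM elsewhere. In macrophages the values were 305 CPM in replicate 2 and 191 CPM at 72 h, against 58.8 to 192 CPM elsewhere, so that brain at 72 h lay within the range of the other libraries. The part of the gene lists in these values was not tested.

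**Figure D2:**
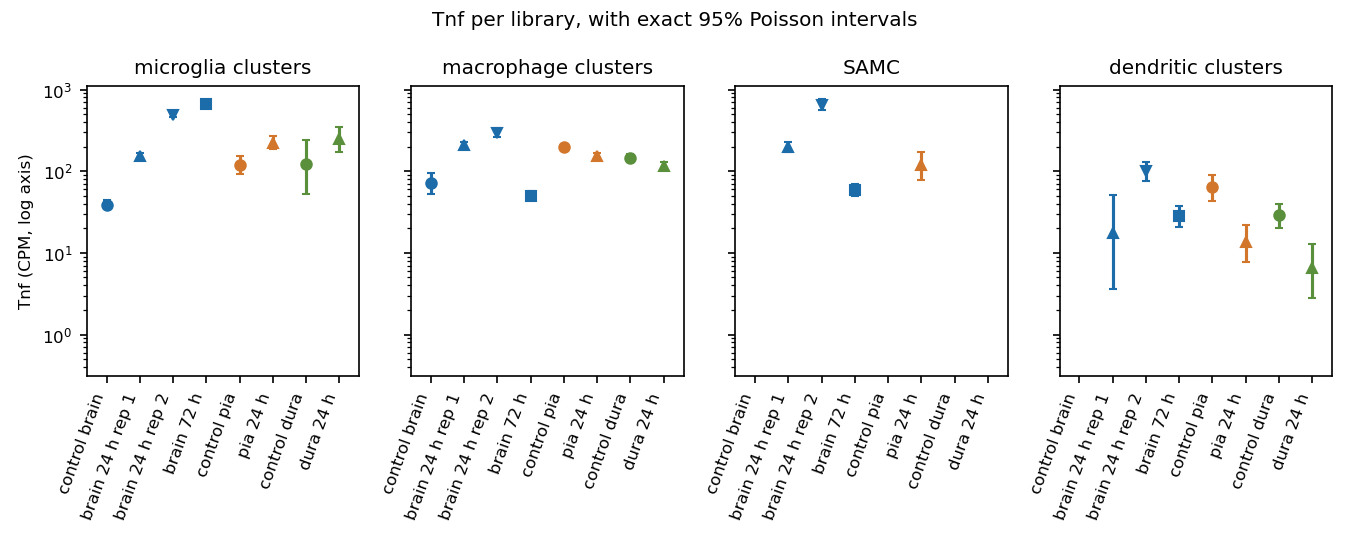
Tnf in CPM (log axis) in each library for 4 groups of cells, with exact 95% Poisson intervals, coloured by tissue (blue brain, orange pia, green dura). Circles are controls, triangles 24 h and squares 72 h. In microglia control brain was lowest at 39.1 CPM and brain at 72 h highest at 659 CPM, while in macrophages brain at 72 h was lowest at 50.1 CPM.

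The change at 24 h was compared with control in a fit with tissue and time. In the microglia clusters of brain and pia, Tnf stood at 39.1 CPM in control brain, 154 and 494 CPM in replicates 1 and 2, 119 CPM in control pia and 225 CPM in pia at 24 h. Within each tissue the class values at 24 h were above control, with counting intervals of the log2 ratios above 0. In single clusters of pia, Tnf went from 60.2 to 192 CPM in Micro_1 and from 354 to 418 CPM in Micro_3. In Micro_2 it went from 117 to 51.1 CPM (9 and 5 UMIs), and the intervals of Micro_2 and Micro_3 included 0. Macrophage markers in Micro_3 of pia went from 19406 to 5314 CPM, so cell identity and time cannot be told apart there. In brain, microglia markers in Micro_3 went from 27729 CPM in control to 15649 and 9185 CPM in replicates 1 and 2. In Micro_1 of brain they went from 35279 to 27291 and 13354 CPM. Cell identity and time therefore cannot be fully told apart in brain either. The fitted log2 fold change of Tnf was 1.97 (SE 0.85), unadjusted p = 0.0573 (edgeR). Bcl3 stood at 1.15 CPM in control brain (7 UMIs), 11.4 and 14.8 CPM in replicates 1 and 2, and 41 and 80.3 CPM in control pia and pia at 24 h. Its log2 fold change was 2.13 (SE 0.79). With all 5 libraries edgeR called 0 of 9462 genes (0%), while 118 genes had an unadjusted p under 0.05, Bcl3 among the 10 members, and DESeq2 called 11. Without replicate 2, 171 of 9372 genes (1.82%) were called on 1 residual degree of freedom, and 2 of the 10 members were among them, both higher. These were Tnf with a log2 fold change of 1.46 (SE 0.23, adjusted p = 0.00595, edgeR) and Bcl3 with 1.83 (SE 0.43, adjusted p = 0.0448). Nfkb2 passed the p threshold at a log2 fold change of 0.87 (adjusted p = 0.0427, edgeR), which is below the fold of 2. Without replicate 1, neither Tnf (log2 2.19, adjusted p = 0.571) nor Bcl3 (log2 2.08, adjusted p = 0.593) was called by edgeR. The dissociation-associated genes, a list of 16 early response and heat shock genes, summed to 67841 CPM in microglia of control brain, 73346 and 58842 CPM in replicates 1 and 2, and 70918 and 76147 CPM in control pia and at 24 h, and their part was not tested. Under scaling by total UMIs the median of all genes in this comparison shifted by 0.14 on the log2 scale.

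In the macrophage clusters the direction of Tnf at 24 h was not the same in brain and at its borders. The sums of control brain and replicate 1 held more microglia than macrophage markers. In this contrast the identity of the cells and the tissue therefore cannot be told apart. Tnf stood at 71.1 CPM in control brain and 210 and 296 CPM in replicates 1 and 2. In pia it went from 197 to 156 CPM and in dura from 144 to 115 CPM. Tnf was thus higher at 24 h in both brain libraries and lower in pia and dura, with counting intervals of each log2 ratio that did not include 0. Nfkbiz stood at 613 CPM in control pia and 274 CPM at 24 h, and at 502 CPM in control dura and 227 CPM at 24 h. In brain it went from 382 CPM to 255 and 600 CPM, so that the 2 replicates lay on either side of the control. Nfkb1 was higher at 24 h in pia (117 to 227 CPM) and dura (103 to 172 CPM), with 130 CPM in control brain and 52.8 and 156 CPM in replicates 1 and 2. With all 7 libraries edgeR called 0 of 9486 genes at 24 h (0%), 459 had an unadjusted p under 0.05, none of them a member, and DESeq2 called 17. Without replicate 2, 136 of 9421 genes (1.44%) were called, and Nfkbiz was the only member among them, with a log2 fold change of -1.03 (SE 0.18, adjusted p = 0.0401, edgeR). In CAM_2 alone, with all libraries, the log2 fold change of Nfkbiz was 0.41.

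**Figure D3:**
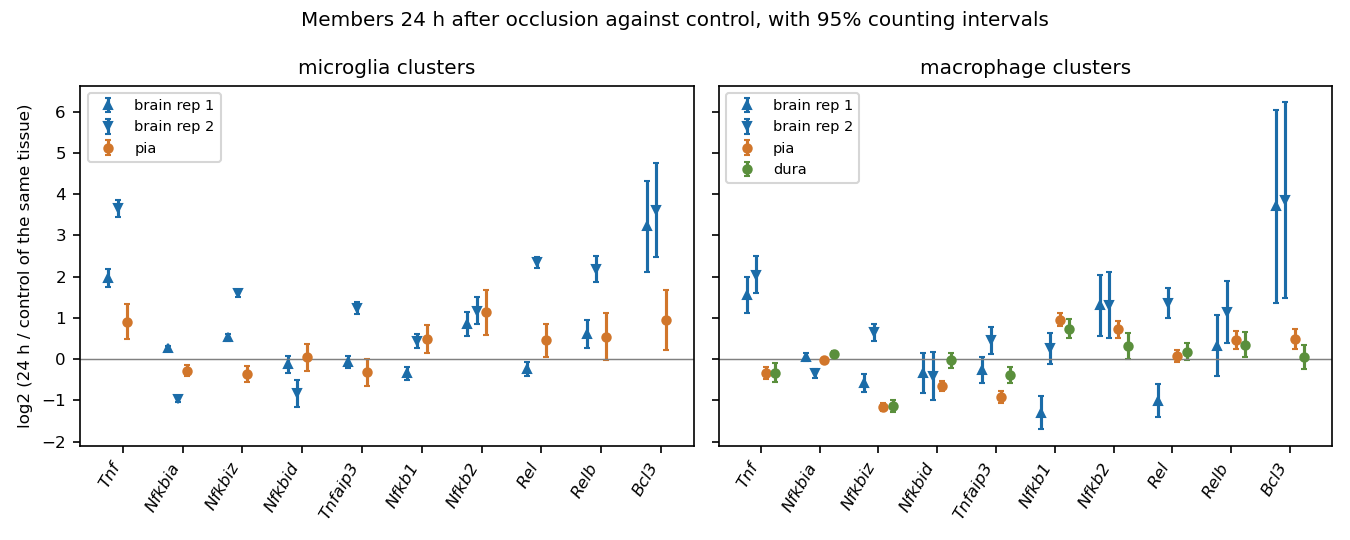
Log2 ratio of CPM at 24 h to the control of the same tissue for each gene, in microglia clusters (left) and macrophage clusters (right), with 95% counting intervals. In macrophages Tnf lay above 0 in both brain replicates and below 0 in pia and dura. The wide intervals of Bcl3 in brain macrophages rest on 1 UMI in control brain.

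The difference between the change in brain and that in pia and dura was tested directly. Since control brain and replicate 1 held more microglia than macrophage markers, cell identity and tissue cannot be told apart in it. With all 7 libraries edgeR called 0 of 10397 genes in macrophages (0%), 143 had an unadjusted p under 0.05, and DESeq2 called 0. Tnf (log2 difference 2.04, SE 0.66) and Bcl3 (3.92, SE 0.93) were the 2 members with an unadjusted p under 0.05. Without replicate 2, 130 of 10175 genes (1.28%) were called on 1 residual degree of freedom, 3 of the 10 members among them. Tnf had a larger change in brain by 1.88 (SE 0.28, adjusted p = 0.00624, edgeR), Bcl3 by 3.93 (SE 0.82, adjusted p = 0.041), and Nfkb1 a smaller one, at -2.17 (SE 0.28, adjusted p = 0.00253). Without replicate 1, 2773 of 10472 genes (26.5%) were called, again on 1 residual degree of freedom. In that fit edgeR gave Tnf 2.20 (adjusted p = 4.18e-04), Bcl3 3.89 (adjusted p = 0.00724), Nfkb1 -0.78 (adjusted p = 0.0571), and also called Nfkbiz (1.61) and Rel (1.06). Under total UMIs the median of all genes shifted by 0.10 on the log2 scale. Every one of these fits rests on the single control brain library, in which Bcl3 had 1 UMI in macrophages (1.51 CPM, exact 95% Poisson interval 0.0383 to 8.42), and without which the interaction could not be fitted. In Macro_2, whose cells carried macrophage markers in every library, Tnf stood at 64.6 CPM in control brain (4 UMIs), 322 and 165 CPM in replicates 1 and 2, 228 and 185 CPM in control pia and pia at 24 h, and 138 and 96 CPM in control dura and dura at 24 h. The directions were those of the whole class, and the counting interval for replicate 2 in Macro_2 (log2 1.20, -0.18 to 2.57) included 0. Macrophage markers in Macro_2 stood at 48706 CPM in control brain and 17241 and 13942 CPM in replicates 1 and 2. They went from 56477 to 45476 CPM in pia and from 53802 to 58103 CPM in dura. In Macro_2 of brain, cell identity and time therefore cannot be told apart. The dissociation-associated genes summed to 56633 CPM in macrophages of control brain and 34586 and 22201 CPM in replicates 1 and 2. They summed to 32864 and 29785 CPM in control pia and pia at 24 h and to 22429 and 21814 CPM in control dura and dura at 24 h. Their part in these values was not tested.

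In the dendritic clusters Tnf was lower at 24 h than in control in both border tissues. It went from 63.5 to 13.5 CPM in pia and from 29 to 6.49 CPM in dura, while brain held 17.7 and 99.5 CPM in replicates 1 and 2. Control brain held 20 dendritic cells and was not used, so the change at 24 h rests on pia and dura. Nfkbiz went from 452 to 132 CPM in pia and from 285 to 171 CPM in dura. With 6 libraries the log2 fold changes were -2.27 (SE 0.71) for Tnf and -1.33 (SE 0.60) for Nfkbiz, edgeR called 0 of 6950 genes (0%), 178 had an unadjusted p under 0.05, Tnf the only member among them, and DESeq2 called 2. Without replicate 2, edgeR called 93 of 8008 genes (1.16%) on 1 residual degree of freedom. The 2 members called were Tnf (log2 -2.27, SE 0.41, adjusted p = 0.00488, edgeR) and Nfkbiz (log2 -1.30, SE 0.29, adjusted p = 0.0483). Without replicate 1 the same 2 members were called among 130 of 8527 genes (1.52%), with log2 fold changes of -2.26 and -1.30. Dissociation-associated genes summed to 20059 and 14418 CPM in control pia and pia at 24 h and to 14541 and 15591 CPM in control dura and dura at 24 h. In mDC2 alone Tnf went from 79.8 to 20.1 CPM in pia and from 50.2 to 10.5 CPM in dura.

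In the lymphoid clusters edgeR called 0 of 7251 genes at 24 h (0%), 107 had an unadjusted p under 0.05, none of them a member, and DESeq2 called 0. The difference between brain and the border tissues gave 0 of 8600 genes (0%), 224 with an unadjusted p under 0.05 and again no member, and DESeq2 called 1. Lymphoid sums of control brain and replicate 1 held 68 and 72 cells, and Bcl3 had 0 UMIs in that control library.

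Cluster by cluster, Tnf, Nfkb2 and Bcl3 were higher at 24 h than in control in 7 of 7 clusters of both brain replicates. Counting intervals of the log2 ratio lay above 0 in 6 and 5 clusters for Tnf in replicates 1 and 2. They did so in 3 and 4 for Nfkb2 and in 4 and 4 for Bcl3, and lay below 0 in 0 clusters for all of these genes. In control brain Bcl3 had 0 UMIs in Micro_3, CAM_1, CAM_2 and T cells, and 1 UMI in Macro_2. Nfkb2 had 0 UMIs in T cells and 1 in Macro_2 there, and Tnf had 1 in T cells. Where the control held 0 UMIs, a lower value at 24 h was hardly possible. In pia Tnf was lower in 10 of 14 clusters and in dura in 8 of 14. Nfkbiz was lower in 13 of 14 clusters of pia and in 12 of 14 of dura, and Tnfaip3 in 13 of 14 in both tissues. Nfkb1 was higher in 13 of 14 clusters of pia and in 10 of 14 of dura, and Relb in 12 and 10. The intervals lay below 0 in 3 and 3 of 14 clusters of pia and dura for Tnf (above 0 in 1 and 0). For Nfkbiz they lay below 0 in 10 and 7 clusters (above 0 in 0 and 0). For Tnfaip3 they lay below 0 in 8 and 7 (above 0 in 1 and 0). For Nfkb1 they lay above 0 in 5 and 4 (below 0 in 0 and 1), and for Relb in 4 and 1 (0 and 0). The same counts were not made over all genes. Clusters of 1 library share their source and the control is 1 library in each tissue, so these counts describe the libraries.

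Pia and dura were compared with brain in the same fits. In the macrophage clusters Nfkbid stood at 68, 54.2 and 51.3 CPM in control brain and replicates 1 and 2, against 303 and 194 CPM in control pia and pia at 24 h and 210 and 206 CPM in control dura and dura at 24 h. The groups did not overlap, and brain at 72 h was lower still, at 28.9 CPM. The values of Bcl3 and Relb, given below, did not overlap either. How many of all genes separated in this way was not counted. In this fit 2189 of the 9486 genes had an unadjusted p under 0.05 (edgeR). The sums of control brain and replicate 1 held more microglia than macrophage markers, 25077 against 8165 CPM and 11086 against 3090 CPM, so that in the class the identity of the cells and the tissue cannot be told apart. The log2 fold change of Nfkbid was 2.35 (SE 0.31, adjusted p = 0.0212, edgeR), and it was the only one of the 10 members called among 346 of 9486 genes (3.65%). Bcl3 stood at 1.51, 29.4 and 32.3 CPM in brain, 58.7 and 82.4 CPM in pia and 78.9 and 81.9 CPM in dura, which gave 2.63 (SE 0.65, adjusted p = 0.0777, edgeR). Relb stood at 27.2, 34.9 and 61.3 CPM in brain, 69.1 and 95.1 CPM in pia and 64.7 and 82.6 CPM in dura, which gave 1.49 (SE 0.32, adjusted p = 0.0558, edgeR). For Nfkb2 the value was 1.41 (SE 0.31, adjusted p = 0.0607, edgeR). Nfkbia held 1404 to 1852 CPM in these 3 brain libraries and 1429 to 1572 CPM in pia and dura, and its log2 fold change was 0.24 (SE 0.36).

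The call of Nfkbid rested on few libraries. Without replicate 2, edgeR called 2244 of 9421 genes (23.8%), 5 of the 10 members among them and all higher in pia and dura, namely Nfkbid (2.30, SE 0.22), Relb (1.74, SE 0.19), Bcl3 (2.45, SE 0.44), Rel (1.46, SE 0.28) and Nfkb2 (1.37, SE 0.23). Without replicate 1, 125 of 9500 genes (1.32%) were called, with Nfkbid the only member, at 2.40 (adjusted p = 0.0491, edgeR). Without control brain, either pia library or either dura library, edgeR called 0 genes, and Nfkbid stood at 2.40, 2.29, 2.51, 2.50 and 2.20, with its highest adjusted p at 0.212. With TMM scaling 192 genes were called higher and 154 lower. With total UMIs the calls were 135 higher and 479 lower, the median of all genes shifted by -0.44 on the log2 scale, from -0.14 to -0.58, and Nfkbid was called at 1.91. In Macro_2, where macrophage markers exceeded microglia markers in every library, Nfkbid stood at 80.7 (5 UMIs), 63.2 and 68.3 CPM in control brain and replicates 1 and 2, against 254 and 157 CPM in pia and 171 and 165 CPM in dura. Macrophage markers in Macro_2 stood at 48706, 17241 and 13942 CPM in these brain libraries, against 45476 to 58103 CPM in pia and dura. Cell identity and tissue therefore cannot be fully told apart in Macro_2 either. In CAM_1 Nfkbid stood at 94.4, 59.3 and 37.4 CPM in brain, against 253 to 427 CPM in pia and dura, but CAM_1 of control brain held 24975 CPM of microglia markers and 1911 CPM of macrophage markers. Dissociation-associated genes summed to 22201 to 56633 CPM in the 3 brain libraries and 21814 to 32864 CPM in the 4 border libraries, and their part was not tested.

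**Figure D4:**
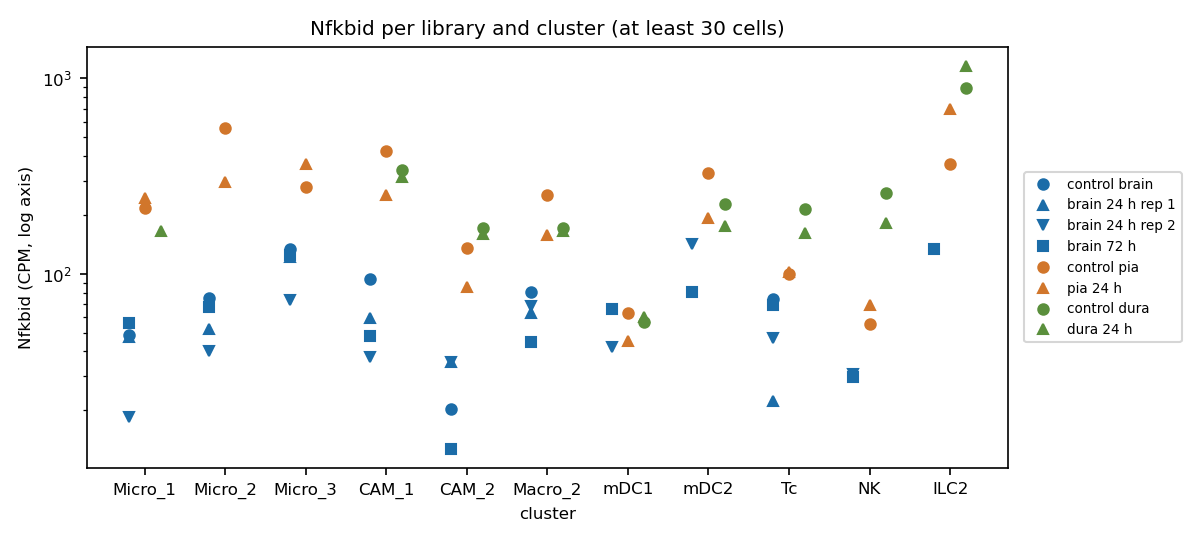
Nfkbid in CPM (log axis) for each library with at least 30 cells in 11 clusters, coloured by tissue (blue brain, orange pia, green dura). In CAM_1, CAM_2 and Macro_2 every pia and dura library lay above every brain library, and in mDC1 they overlapped. How many of all genes separated in this way was not counted.

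In the microglia clusters Nfkbid stood at 276 and 284 CPM in pia, where these clusters held both marker sets, against 39.2 to 78.1 CPM in brain, and these values were not tested. In lymphoid cells Nfkbid stood at 91.4, 81 and 87.2 CPM in control brain and replicates 1 and 2, 204 and 190 CPM in pia, and 387 and 431 CPM in dura. None of the 10 members was called there among 11 of 7251 genes (0.152%), with Nfkbid at 1.81 (SE 0.32, adjusted p = 0.0747, edgeR). The lymphoid clusters hold different cells in each tissue, and ILC2 reached 30 cells in no brain library of this fit. In T cells alone Nfkbid stood at 74.4 (3 UMIs), 22.4 (1 UMI) and 46.7 CPM in control brain and replicates 1 and 2. It stood at 99.2 and 103 CPM in pia and 215 and 162 CPM in dura. Without replicate 2, 174 of 6246 genes (2.79%) were called, 4 of the 10 members among them and all higher in pia and dura, namely Nfkbid (1.88), Nfkb1 (2.08), Nfkb2 (2.10) and Rel (1.80). In T cells alone, with all libraries, Nfkb1 was -0.16 and Rel -0.97, and with 1 library left out Rel in lymphoid cells ran from -0.48 to 1.80. In dendritic cells edgeR called 0 of 6950 genes between tissues (0%), 712 had an unadjusted p under 0.05, Tnf (-2.68, SE 0.72) the only member among them, and DESeq2 called 5. The value for Tnf rested on replicate 2, which alone stood at 99.5 CPM. Without replicate 1, where brain was replicate 2 alone, Tnf was called at -3.15 (adjusted p = 1.28e-07, edgeR) among 2436 of 8527 genes (28.6%), and without replicate 2 it stood at -0.76 and was not called. Under total UMIs the median of all genes in dendritic cells shifted by -0.15 on the log2 scale.

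At 72 h after MCAO, with 1 brain library, Tnf was above both 24 h replicates in the microglia clusters and below both in the macrophage clusters. In microglia it stood at 659 CPM, above replicate 1 by 2.10 (95% counting interval 1.97 to 2.24) and above replicate 2 by 0.42 (0.30 to 0.54) on the log2 scale. Microglia markers in Micro_3 stood at 15649, 9185 and 11019 CPM in replicates 1 and 2 and at 72 h. Macrophage markers there stood at 1197, 2039 and 4404 CPM, so cell identity and time cannot be fully told apart. In macrophages Tnf stood at 50.1 CPM, with log2 differences of -2.07 (-2.29 to -1.85) and -2.56 (-2.81 to -2.31). In SAMC, the cluster that the study calls stroke-associated myeloid cells, Tnf went from 199 and 653 CPM at 24 h to 59.5 CPM at 72 h. Nfkbia in macrophages went from 1852 and 1404 CPM to 554 CPM, Nfkbiz from 255 and 600 CPM to 143 CPM, and Tnfaip3 from 145 and 239 CPM to 65.7 CPM. These sums differed in their markers, with 11086 and 2721 CPM of microglia markers in replicates 1 and 2 and 1520 CPM at 72 h, beside 3090, 13208 and 42105 CPM of macrophage markers. In Macro_2, where macrophage markers stood at 17241, 13942 and 13304 CPM in replicates 1 and 2 and at 72 h, Tnf was at 322, 165 and 30.6 CPM. The log2 differences of Tnf in Macro_2 were -3.40 (-3.94 to -2.85) and -2.43 (-2.93 to -1.94). Nfkbia in Macro_2 stood at 3019, 1797 and 711 CPM in these 3 libraries, Nfkbiz at 259, 690 and 189 CPM and Tnfaip3 at 196, 258 and 76.2 CPM. In the whole class 8 of the 10 members were lower at 72 h than in replicate 1 and 10 of 10 lower than in replicate 2, against 50.3% and 61.7% of the 5879 genes with a mean of at least 20 CPM in these sums. Relb stood at 34.9 CPM in replicate 1 and 34.4 CPM at 72 h, with a log2 difference of -0.03 (-0.42 to 0.36), and Nfkb1 and Rel were above replicate 1. The replicates differed from each other by 2.37 in Rel and 1.56 in Nfkb1 on the log2 scale. The dissociation-associated genes summed to 11651 CPM in macrophages at 72 h, below every other library, and their part was not tested.

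Cells that held a Tnf UMI were set against cells of the same class and library that held none, after thinning to 1000 UMIs. In macrophages Nfkbia was higher in the Tnf cells of 7 of 7 libraries, with a median log2 ratio of 0.70 (0.51 to 1.72). In control pia it stood at 2082 CPM in 252 cells with a Tnf UMI and 1334 CPM in 1406 cells without. Nfkbiz (median 0.79, 0.45 to 1.62) and Nfkbid (median 0.86, 0.55 to 0.99) were also higher in 7 of 7 libraries, and Tnfaip3 (median 0.87, -0.41 to 1.90) in 6 of 7. Counting intervals lay above 0 in 7 libraries for Nfkbia, 6 for Nfkbiz, 4 for Nfkbid and 5 for Tnfaip3. With cells thinned to 500 UMIs, Nfkbia and Nfkbiz were higher in 7 of 7 libraries and Tnfaip3 in 6 of 7. Nfkbid was then higher in 5 of 7 (median 0.61, -0.47 to 2.79). With 1000 UMIs the subunits Nfkb1 and Nfkb2 were each higher in 4 of 7 libraries, with medians of 0.13 and 0.42. Rel and Relb were each higher in 6 of 7, with medians of 0.55 and 0.65. Counting intervals lay above 0 in 0 libraries for Nfkb1, 1 for Nfkb2 and 2 each for Rel and Relb. With 500 UMIs each of these subunits was higher in 6 of 7 libraries. In microglia Nfkbia (median 0.39, 0.27 to 1.05) and Nfkbiz (median 0.46, 0.22 to 0.51) were higher in 5 of 5 libraries, as was Bcl3 (median 0.86, 0.24 to 1.97), though none of its counting intervals lay above 0. With microglia thinned to 500 UMIs, Nfkbia and Nfkbiz were higher in 4 of 4 libraries and Bcl3 in 3 of 4. Within single clusters, a comparison added after the data had been seen, Nfkbia, Nfkbiz and Nfkbid were higher in 5 of 5 libraries of CAM_1, with medians of 0.62, 0.52 and 0.70, but Tnfaip3 in 1 of 5. In Micro_3, Nfkbia was higher in 3 of 4 libraries and Nfkbiz in 2 of 4. Cells of a class share their library, and these ratios were not tested. Of all genes with a mean of at least 20 CPM in these cells, 147 of 5288 (2.78%) were higher in every macrophage library and 344 of 5974 (5.76%) in every microglia library.

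**Figure D5:**
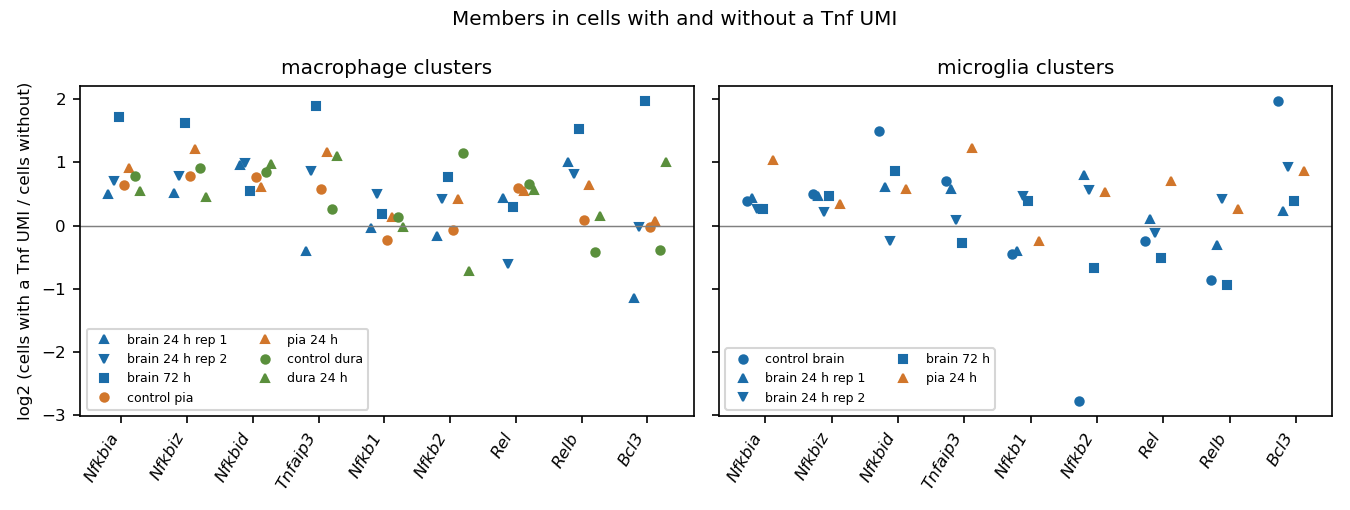
Log2 ratio of CPM in cells with a Tnf UMI to cells without, for the other 9 genes, each cell thinned to 1000 UMIs, with 1 point per library. In macrophages all 7 libraries lay above 0 for Nfkbia, Nfkbiz and Nfkbid, and in microglia all 5 did for Nfkbia and Nfkbiz.

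The genes with the most similar levels were taken from 5836 genes over 112 sums of library and cluster, as Pearson correlations of log2(CPM + 10). The sums share libraries, depth and cells in their mixture, and the correlations are a description. Tnf was most like Ier3 (0.76), an early response gene, then the early response gene Egr1 (0.76) and the chemokine Ccl3 (0.76). Nfkbia was most like Csrnp1 (0.75), Junb (0.65) and Nfkbid (0.62). Nfkbiz was most like Zfand5 (0.80), Ccrl2 (0.76) and Skil (0.76). Nfkbid was most like the orphan nuclear receptor Nr4a1 (0.79), Csrnp1 (0.76) and Phlda1 (0.72). Tnfaip3 was most like Pnrc1 (0.79), Ddx5 (0.72) and Nabp1 (0.71), and Nfkb1 like Tob2 (0.68), Ifrd1 (0.68) and Siah2 (0.64). Nfkb2 was most like Tgif1 (0.72), Ell2 (0.67) and Rrad (0.67), and Relb, too, was most like Tgif1 (0.59), then Mir155hg (0.56) and Arl5c (0.55). Rel was most like Spag9 (0.73), Uvrag (0.68) and Cd2ap (0.67). Bcl3 was most like Il1b (0.73), which encodes interleukin-1 beta, Pqlc1 (0.70) and Ifitm2 (0.68). Egr1 and Junb belong to the dissociation-associated list. Among the members Tnf was closest to Nfkbiz (0.71) and showed 0.00799 with Nfkbid.

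The rest of the pathway was described by fixed lists in macrophages of pia and dura against brain, beside a median of -0.14 over all genes. Of all genes, 346 of 9486 (3.65%) were called in this fit. The macrophage sums of control brain and replicate 1 held more microglia than macrophage markers. Cell identity and tissue therefore cannot be told apart in this fit or in the interaction given below. The lists were chosen with earlier results of these data known. Of 30 receptor and signalling genes tested, 2 were called, both higher, namely Cd40 (log2 2.97, SE 0.42) and Tlr2, and the list median was -0.07. Of 14 feedback genes, Birc3 and Zc3h12a were called higher (median 0.34). Of 28 target genes of the pathway, 6 were called higher and 0 lower (median 1.40), namely Bcl2a1d, Cd83, Cxcl1, Marcksl1, Sod2 and Vcam1, the last an adhesion molecule with the value 4.75 (SE 0.42). Of the 4 other subunits and inhibitors 0 were called (median 1.54). Without replicate 2, where 2244 of 9421 genes (23.8%) were called, 19 of 28 targets were called higher and 2, the chemokines Ccl3 and Ccl4, lower, and 3 of 4 other subunits and inhibitors higher, namely Nfkbib, Nfkbie and Rela. Of the receptor and signalling genes, Bcl10, Cd40, Irak3, Malt1, Ripk1, Tlr2, Tnfrsf1a and Traf1 were called higher there and Tab1 lower. Of the feedback genes, Birc3, Tnip1, Tnip3 and Zc3h12a were called higher and Otud7b lower. In the same fit the dissociation-associated genes Hspa1a and Hspa1b were called higher and Dusp1, Egr1, Fos and Jun lower, and the part of these dissociation-associated genes was not tested. In the fit with all 7 libraries, of the 16 dissociation-associated genes Hspa1a was called higher and Egr1 and Jun lower. In the interaction without replicate 2, the 28 targets had a median of 1.19, beside 0.01 over all genes. With all 7 libraries 0 of the 28 were called there (median 0.79, beside 0.12 over all genes).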

How the data were processed

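The 8 libraries were 10x single-cell RNA-seq of sorted leukocytes. The authors deposited UMI counts per gene and cell, made per the submitters' processing notes with Cell Ranger 6.0 and the mouse genome mm10, and a table of cells with their cluster. According to the methods, the authors removed doublets with scDblFinder before clustering, and no doublet caller was run here. The 4397 barcodes without a cluster were left out.

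Counts were summed per library and cluster, or per class of clusters, where at least 30 cells were present, and given as CPM of the sum. Sums were tested with edgeR 4.0.16 (R 4.3.3) by the quasi-likelihood test with TMM factors, filterByExpr and Benjamini-Hochberg adjustment over all genes tested, with tissue and time as terms. Alternatives were DESeq2 1.42.0, total UMIs, no filter, at least 10 cells, cells thinned to 1000 UMIs, a single cluster in place of the class, brain at 72 h as a level of time, and each library left out. Ratios between single libraries, with 0.5 UMIs added, and exact 95% Poisson or binomial intervals cover counting error only. Levels between clusters were described without a test. Other steps used Python 3.11.15, numpy 2.4.6, pandas 2.3.3, scipy 1.17.1 and matplotlib 3.10.9. The test scripts were tested on simulated data. The 10 genes and the pathway lists were chosen with earlier results of these data known. All 10 members were named, along with list genes that were called and, for each member, the 3 genes with the highest correlation among those with a mean of at least 20 CPM.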

Additional observations from a re-analysis of the deposited data

Results flagged for a closer look

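In macrophage clusters without replicate 2 of brain at 24 h, the change at 24 h differed between brain and the border tissues in a direct test of the difference (edgeR, log2 scale, 1 residual degree of freedom). The difference was 1.88 for Tnf, 3.93 for Bcl3 and -2.17 for Nfkb1. With all 7 libraries edgeR called 0 of 10397 genes, and without replicate 1 Nfkb1 stood at -0.78 (adjusted p = 0.0571, edgeR) and was not called. Each of these fits rests on the single control library of brain, which held 1 Bcl3 UMI in these clusters. In that library and in replicate 1 these clusters held more microglia than macrophage markers, so cell identity and tissue cannot be told apart.

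In microglia clusters, the log2 ratios of 24 h to control had opposite signs in brain and pia for 2 genes, and the difference was not tested. In pia these clusters held macrophage as well as microglia markers, so cell identity and tissue cannot be told apart. For Nfkbiz the log2 ratio was 0.53 and 1.6 in the brain replicates and -0.37 in pia. For Nfkbid it was -0.12 and -0.83 in the brain replicates and 0.0414 in pia, and the counting intervals of replicate 1 and of pia included 0, so that opposite movement is not shown for Nfkbid.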

How the results depend on the processing

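No paired analysis was possible because only brain at 24 h had replicate numbers 1 and 2 and every other group was a single library. Which libraries shared mice was not found. Counts of genes called moved with the setting, and the cause was not tested. For 24 h against control, the count of 0 in macrophages became 17 with DESeq2, 73 without the filter and 1 in CAM_2 alone. In microglia 0 became 11 with DESeq2 and 12 without the filter, in dendritic cells 2 with DESeq2, 7 without the filter and 88 in mDC2 alone, and in lymphoid cells 8 without the filter and 2 with 72 h as a level. For pia and dura against brain, 346 in macrophages became 1005 with DESeq2, 614 with total UMIs (135 higher, 479 lower) and 1262 without the filter. In dendritic cells 0 became 5 with DESeq2, 79 without the filter, 4 with at least 10 cells, 1691 in mDC2 alone and 2 with 72 h as a level. In lymphoid cells 11 became 106 with DESeq2, 347 without the filter, 27 after thinning, 22 in T cells alone and 40 with 72 h as a level. The difference of changes went from 0 to 15 without the filter in macrophages, and from 0 to 1 with DESeq2 and to 1 without the filter in lymphoid cells.

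Leaving out 1 library each, the counts at 24 h ran from 0 to 136 in macrophages (136 without replicate 2), from 0 to 171 in microglia (171 without replicate 2, 16 without replicate 1), from 0 to 130 in dendritic cells (130 and 93 without replicates 1 and 2) and from 0 to 44 in lymphoid cells (44 without replicate 2). Between tissues they ran from 0 to 2244 in macrophages (2244 without replicate 2, 125 without replicate 1, 0 without any other), from 0 to 2436 in dendritic cells (2436 and 36 without replicates 1 and 2) and from 0 to 174 in lymphoid cells (174 without replicate 2, 0 without control brain). For the difference of changes they ran from 0 to 2773 in macrophages (2773 and 130 without replicates 1 and 2) and from 0 to 860 in lymphoid cells (860 without replicate 1). The difference of changes could not be fitted in dendritic cells or without control brain.

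Some members reversed. Nfkbiz at 24 h in macrophages was 0.41 in CAM_2 alone. Between tissues, Rel was -0.56 in CAM_2 alone, Nfkb1 in lymphoid cells was -0.16 in T cells alone, and Rel in lymphoid cells was -0.22 after thinning, -0.97 in T cells alone and from -0.48 to 1.80 with 1 library left out. Nfkbid in macrophages stayed between 1.91 and 2.51 and was called in 10 of 15 fits. Among these, the fit with at least 10 cells was the same as the main fit, since every macrophage library held at least 356 cells. Of the 10 leading clusters, Rel passed to mDC2 with at least 10 cells and without each pia or dura library, Nfkbia to mast cells by share of cells, without pia at 24 h and without dura at 24 h, and Nfkbiz to stress_Myeloid without pia at 24 h. Precision was limited by 1 library per group and by few cells, such as 20 dendritic cells and 1 Bcl3 UMI in macrophages of control brain.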
